A study of Mus musculus with 5 samples.

Results

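The overnight fasting step was read from 2 libraries of single hepatocytes, one taken 16 h and one 8 h after food was withdrawn from male C57BL/6J mice of wild-type genotype on normal chow. The barcode table assigned 9460 barcodes to the 16 h library and 12153 to the 8 h library, together 21613 of the 47473 barcodes of the series. All of them were used. UMIs (unique molecular identifiers, each standing for 1 captured RNA molecule) of a panel of 64 genes were summed per gene and library and given as CPM, here UMIs per 1000000 panel UMIs. The mice had been trained for 3 days to fast for 16 h and to feed for 8 h, and had drinking water with 20% sucrose beside their food on the day of the experiment. The fed mice (0 h) were taken at clock hour 13 after 4 h of feeding, and food and sucrose were removed from the fasted mice at that hour. The 8 h library was therefore taken at clock hour 21 and the 16 h library at clock hour 5, so that hours of fasting and time of day cannot be told apart. Libraries were made from isolated total hepatocytes, 1 library per time point, and the sources used here do not say how old or how many the mice were. No difference below has a replicate check, and intervals cover counting error only.

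In the fed liver, insulin drives the conversion of glucose to fatty acids, and the same signal holds down the genes that make glucose. During a fast, insulin falls and glucagon and glucocorticoids take over. Glycogen is used first, and the synthesis of glucose from lactate, glycerol and amino acids carries a growing share as glycogen runs out. Bile acid synthesis, which disposes of cholesterol, follows both feeding and the clock. The step from 8 to 16 h lies between early fasting and starvation.

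Depth was unequal. Panel UMIs came to 3979629 at 8 h, with a median of 219 per barcode, and to 6154934 at 16 h, with a median of 651. Barcodes under 200 UMIs made up 47.8% of the 8 h library and 5.52% of the 16 h library. Barcodes with 300 or more UMIs were 42.5% of barcodes at 8 h and 87.3% at 16 h. They held 75.2% and 95.9% of the UMIs. Their values are therefore given below beside those of all barcodes for the counts of genes and for some single genes. Where only 1 ratio is given, it is that of all barcodes. Alb, which encodes serum albumin and marks hepatocytes, took 71.3% of UMIs at 8 h and 70.9% at 16 h, so leaving it out of the denominator lowered the log2 ratio of each other gene by the same small amount. The libraries shared 21 barcode sequences. Genes of other liver cells together (Cdh5, Mrc1, Cd68, Ptprc, Pdgfra and Pdgfrb, the 6 on the panel of 26 such markers listed) summed to 220 CPM (95% Poisson interval 206 to 235) in the 8 h library and 34.4 CPM (30.0 to 39.4) in the 16 h library. In barcodes with 300 or more UMIs they stood at 55.2 and 30.3 CPM, and none of the 6 was at 0 in either library. Barcodes with 3 or more of their UMIs numbered 105 at 8 h and 4 at 16 h. The part of depth and of these cells in the differences below was not tested.

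Lower genes outnumbered higher ones across this step. Of 56 genes with at least 100 UMIs over both libraries, 17 (30.4%) were over 2-fold lower at 16 h and 1 (1.79%), Srebf1, was over 2-fold higher. The same counts and percentages were found without Alb. The median log2 ratio of 16 h over 8 h was -0.20. Of the 17, 4 were the genes of other liver cells with enough UMIs and 13 were not. Those 4 were Mrc1 (log2 -3.46) and Cd68 (-1.52), listed as macrophage markers, Cdh5 (-2.97), listed as endothelial, and Ptprc (-2.75), listed as leukocyte. Which cells carried these UMIs was not tested. In barcodes with 300 or more UMIs their values were -0.85, -0.65, -0.75 and -1.61, where of the 4 only Cd68 still had 100 UMIs or more. In barcodes with 300 or more UMIs, 53 genes had enough UMIs. There 11 (20.8%) were over 2-fold lower, all 11 among those 13, and 1 (1.89%) was over 2-fold higher. The 2 of the 13 that no longer passed were Sds and Glul. Counted as UMIs per barcode, with no denominator, each log2 ratio is 0.99 higher and the median stands at 0.79, because a 16 h barcode held 651 UMIs on average and an 8 h barcode 327. On that scale 7 genes were over 2-fold lower and 19 over 2-fold higher. By median-of-ratios scaling, which puts the median at 0, 15 were over 2-fold lower and 3 over 2-fold higher (Srebf1, Cyp7b1 and Igfbp2). The ratios in this text are thus relative to the panel, and a gene between -0.99 and 0 had more UMIs per barcode at 16 h.

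**Figure D1:**
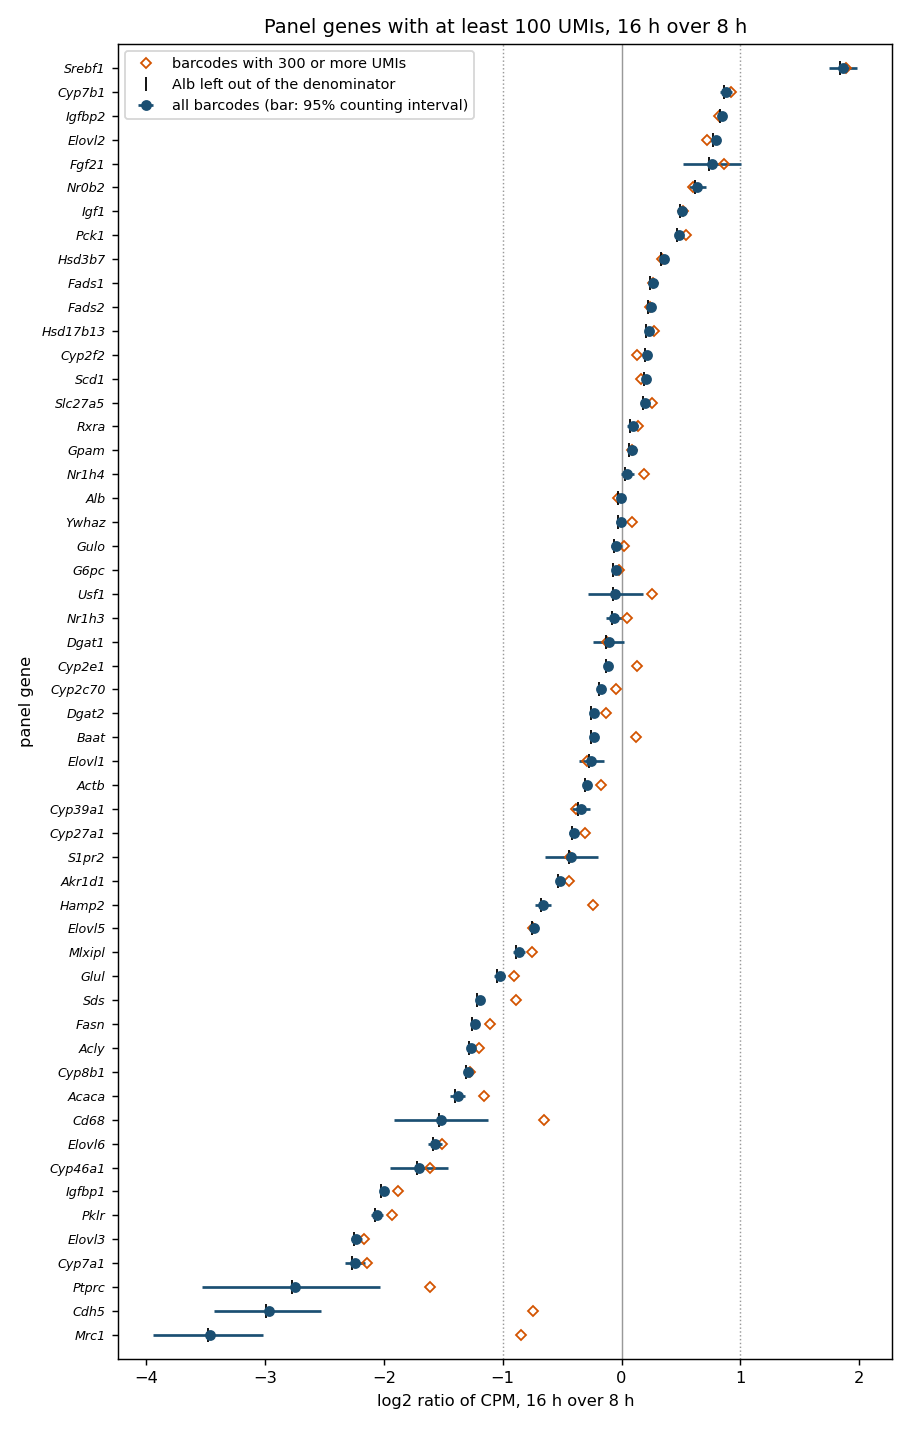
The log2 ratio of CPM at 16 h over 8 h for 54 of the 56 genes with at least 100 UMIs (circles, with the 95% counting interval), in barcodes with 300 or more UMIs (diamonds) and without Alb in the denominator (ticks); dotted lines mark 2-fold. Srebf1 stands alone to the right of the upper line, and 16 genes lie left of the lower line, among which Mrc1, Cdh5, Cd68 and Ptprc have diamonds far from their circles.

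Glycolysis was represented by a gene that was over 4-fold lower at 16 h. Pklr (chromosome 3, 89136142 to 89146784, in GRCm38 coordinates as for the genes below) encodes liver pyruvate kinase, which carries out the last step of the pathway. Across 0, 8, 16, 24 and 30 h of fasting it stood at 2804, 2773, 667, 394 and 254 CPM, with a Poisson interval of 646 to 687 CPM for 16 h. Fed and 8 h levels of Pklr thus lay close together, and the gap opened in the overnight step, where the log2 ratio was -2.06 (95% interval -2.11 to -2.00), a 4.16-fold difference. In barcodes with 300 or more UMIs the Pklr ratio was -1.93.

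Of the 4 fatty acid synthesis enzymes on the panel, 3 were over 2-fold lower at 16 h and none was over 2-fold higher, with a median log2 ratio of -1.25 over the 4. Acly, which makes cytosolic acetyl-CoA from citrate, stood at 6114 and 2547 CPM at 8 and 16 h (log2 -1.26, interval -1.29 to -1.23). Acaca, which turns acetyl-CoA into malonyl-CoA, stood at 1477 and 568 CPM (log2 -1.38, -1.44 to -1.32). Fasn, which builds palmitate from malonyl-CoA, stood at 4378 and 1862 CPM (log2 -1.23, -1.27 to -1.20). These 3 consecutive enzymes of the pathway were thus lower by nearly the same factor, 2.40-fold, 2.60-fold and 2.35-fold. Scd1, the desaturase that acts on the finished fatty acid, stood at 81346 and 93956 CPM (log2 0.21). UMIs of Scd1 per UMI of Fasn, a quantity free of the denominator, went from 18.6 at 8 h to 50.5 at 16 h. In barcodes with 300 or more UMIs the log2 ratios of Acly, Acaca and Fasn were -1.20, -1.15 and -1.10. By UMIs per barcode they were -0.27, -0.39 and -0.24, which are not past 2-fold.

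Srebf1 (chromosome 11, 60199089 to 60222581, minus strand) went the other way. It encodes SREBP-1, the transcription factor that drives these enzymes and that insulin induces. From 0 to 30 h it stood at 4538, 167, 606, 300.3 and 237 CPM, with intervals of 154 to 180 CPM for 8 h and 587 to 626 CPM for 16 h. The overnight log2 ratio was 1.86 (1.74 to 1.98), a 3.64-fold difference based on 663 and 3730 UMIs. In deep barcodes, those with 300 or more UMIs, it was 1.89. Of the 4 fasted libraries the 16 h one had the highest Srebf1 level, still below the fed library. UMIs of Srebf1 per UMI of Fasn were 0.167 when fed, 0.0381 after 8 h, 0.325 after 16 h and 0.337 after 24 h. Per UMI of Acly they were 0.218, 0.0272, 0.238 and 0.147. Between 8 and 16 h the ratio to Fasn changed by 3.10 on the log2 scale (2.97 to 3.22) and the ratio to Elovl6 by 3.43 (3.30 to 3.56). Mir6922 overlaps an exon of Srebf1 on the same strand, so UMIs can include it, and counts at the 3' end do not separate the Srebf1 isoforms. Of the 4 transcription factors of lipogenesis on the panel, Srebf1 was the one past 2-fold. Mlxipl, which encodes the glucose-sensing factor ChREBP, stood at 1605 and 881 CPM (log2 -0.87, -0.92 to -0.81). Nr1h3, the oxysterol receptor LXR alpha, stood at 744 and 712 CPM, and Usf1 at 64.3 and 62.1 CPM, both with intervals of the ratio that include 0. Their ratios, -0.06 and -0.05, were 0.14 and 0.15 by median-of-ratios scaling. In barcodes with 300 or more UMIs they were 0.04 and 0.26, and when CPM were averaged over barcodes -0.20 and -0.55. Gm13783 overlaps an exon of Nr1h3 and Tstd1 one of Usf1, both on the same strand, so UMIs can include them.

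**Figure D2:**
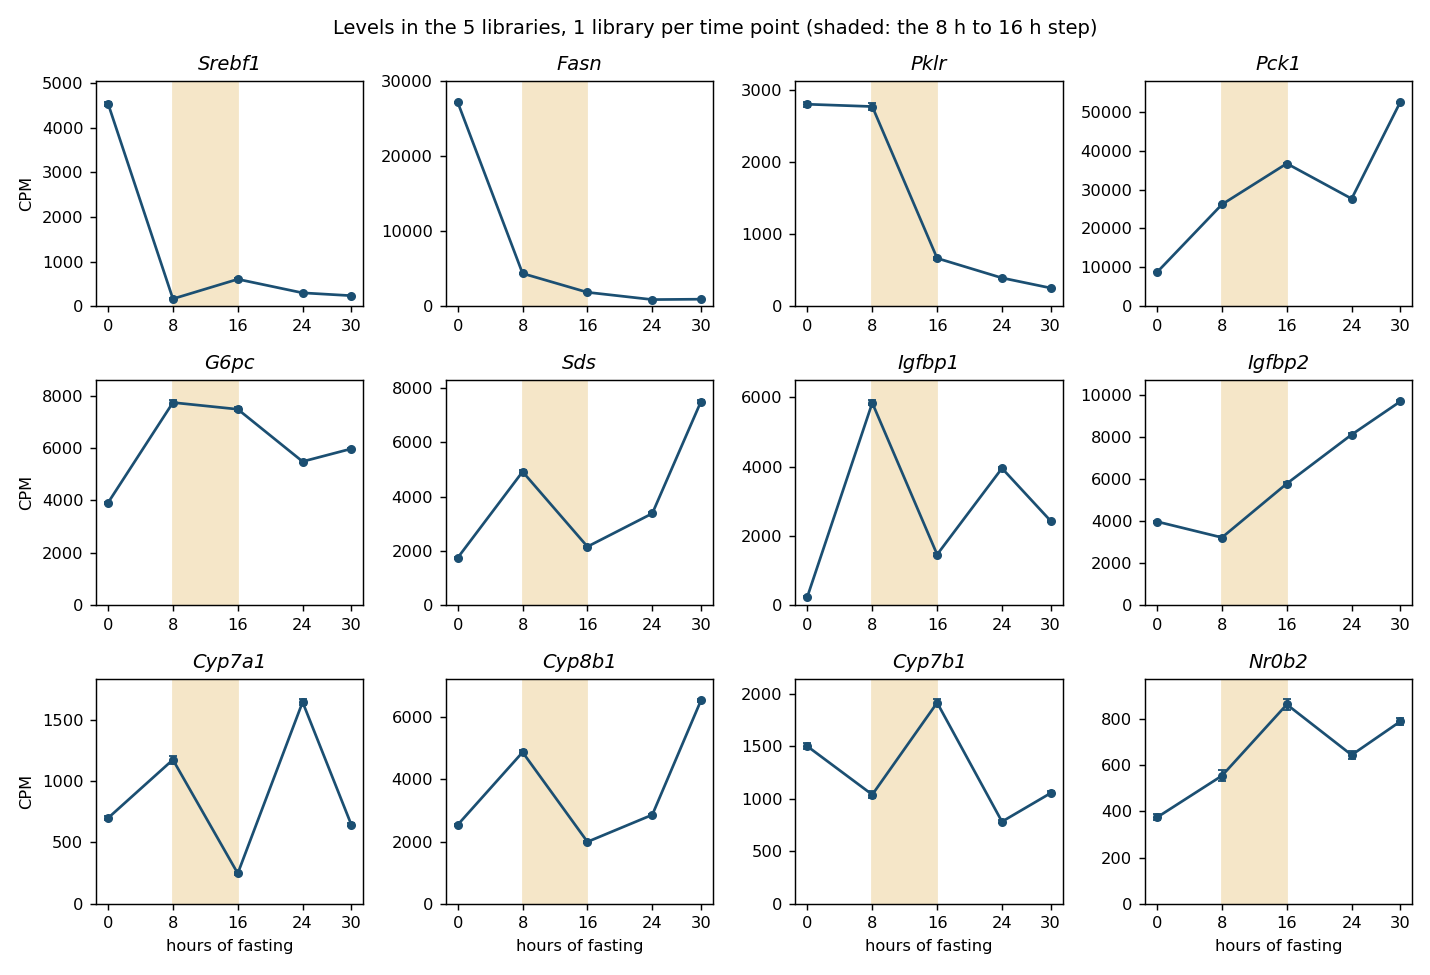
CPM of 12 genes (vertical axes, each from 0) against hours of fasting, 1 library per point, with 95% Poisson intervals; the step from 8 to 16 h is shaded. Srebf1, Pck1, Igfbp2, Cyp7b1 and Nr0b2 are higher at the right edge of the shading than at the left, and Fasn, Pklr, Sds, Igfbp1, Cyp7a1 and Cyp8b1 are lower.

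Enzymes that lengthen or desaturate fatty acids differed among themselves. Of 7 with enough UMIs, 2 were over 2-fold lower, none was over 2-fold higher, and the median log2 ratio was -0.25. Elovl6, which elongates palmitate to stearate, stood at 1708 and 576 CPM at 8 and 16 h (log2 -1.57, -1.63 to -1.51). Elovl3, which elongates saturated and monounsaturated fatty acids and is known for a strong daily rhythm in liver, stood at 3961 and 843 CPM (log2 -2.23, -2.28 to -2.19). Elovl5, an elongase of polyunsaturated fatty acids, stood at 7473 and 4490 CPM (log2 -0.73). Elovl2, which acts on longer polyunsaturated fatty acids, was on the other side, at 3023 and 5232 CPM (log2 0.79, 0.76 to 0.82). UMIs of Elovl2 per UMI of Elovl6 went from 1.77 to 9.09. The desaturases Fads1 and Fads2 had ratios of 0.26 and 0.25, and Elovl1 one of -0.25.

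The 3 panel genes of gluconeogenesis and amino acid use each took a different course, with 1 over 2-fold lower, none over 2-fold higher and a median log2 ratio of -0.05. Pck1, which encodes the cytosolic phosphoenolpyruvate carboxykinase, a control point of the pathway, stood at 26189 CPM (26030 to 26348) and 36701 CPM (36549 to 36852). The ratio was 0.49 on the log2 scale (0.48 to 0.50), or 1.40-fold, and 0.54 in barcodes with 300 or more UMIs. G6pc, whose enzyme frees glucose from glucose-6-phosphate for export, stood at 7736 and 7480 CPM (log2 -0.05, -0.07 to -0.03). By median-of-ratios scaling the G6pc value was 0.15, so its sign depended on the scaling. Sds, which encodes serine dehydratase and feeds serine into pyruvate, stood at 4921 and 2155 CPM (log2 -1.19, -1.22 to -1.16). In barcodes with 300 or more UMIs the Sds ratio was -0.89, which is not past 2-fold. UMIs of Pck1 per UMI of Sds went from 5.32 at 8 h to 17.0 at 16 h, and those of Pck1 per UMI of G6pc from 3.39 to 4.91. Set against the opposing glycolytic enzyme, Pck1 had 9.44 UMIs per UMI of Pklr at 8 h and 55.1 at 16 h.

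The Pck1 difference was spread over the barcodes. Barcodes with 300 or more UMIs were thinned at random to 300 UMIs each, which left 5159 at 8 h and 8260 at 16 h and left out 6994 and 1200. The median barcode then held 7 Pck1 UMIs at 8 h and 11 at 16 h. Barcodes with 10 or more made up 29.8% at 8 h (95% Clopper-Pearson interval 28.5% to 31.1%) and 58.4% at 16 h (57.3% to 59.5%). Before thinning these shares were 63.3% and 88.0%, at median depths of 546 and 706.5 UMIs. The variance over the mean of Pck1 UMIs per thinned barcode was 2.82 at 8 h and 2.52 at 16 h. The upper tail of Igfbp1 was thinner at 16 h. Barcodes with 3 or more Igfbp1 UMIs made up 23.3% at 8 h (22.2% to 24.5%) and 2.23% at 16 h (1.92% to 2.57%), and 40.1% and 11.9% before thinning. The variance over the mean went from 2.61 to 1.24. Only 2 barcodes at 8 h and 1 at 16 h in this set held 3 or more UMIs of the other-cell genes, so no background share could be set, and none of these shares is read as a share of expressing cells.

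**Figure D3:**
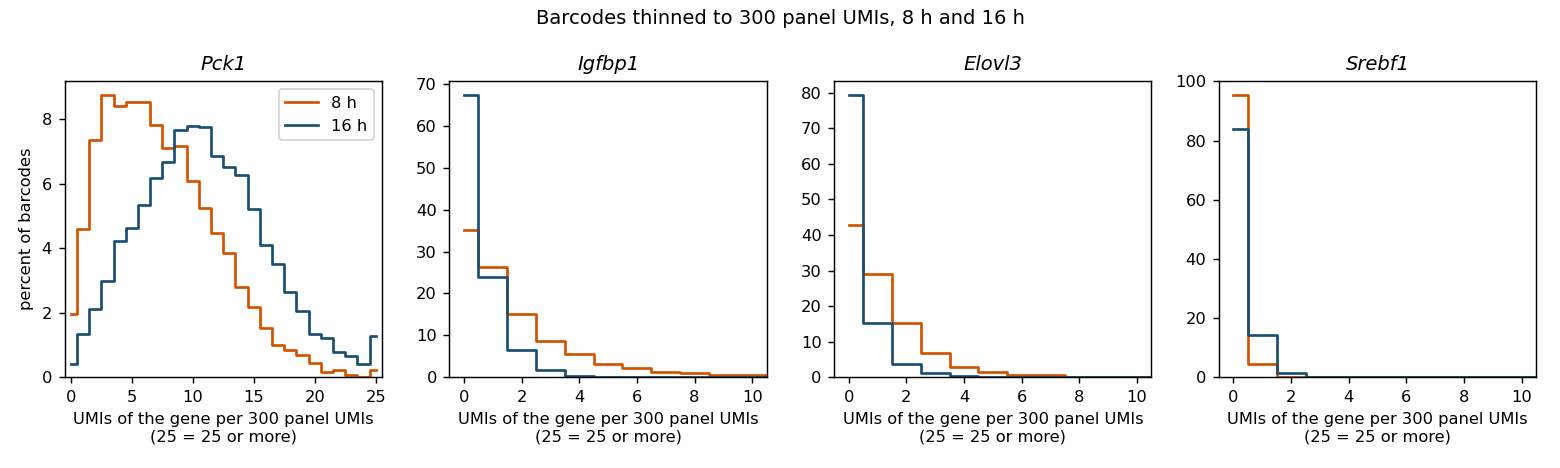
Share of barcodes (vertical axis, percent) by the number of UMIs of Pck1, Igfbp1, Elovl3 and Srebf1 after each barcode was thinned to 300 panel UMIs, in 5159 barcodes at 8 h and 8260 at 16 h. The whole Pck1 distribution lies further right at 16 h, with medians of 7 and 11 UMIs, and the tails of Igfbp1 and Elovl3 are shorter at 16 h.

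The IGF axis was split in the same step. Igfbp1 (chromosome 11, 7197782 to 7202546), a secreted binding protein that insulin represses and that fasting is known to induce, stood at 5841 CPM (5766 to 5916) in the 8 h library and 1459 CPM (1429 to 1490) in the 16 h library. This is a log2 ratio of -2.00 (-2.04 to -1.97), or 4.00-fold, with 246 CPM at 0 h and 3952 at 24 h. The value at 8 h was the highest of the 5 libraries. In barcodes with 300 or more UMIs the Igfbp1 ratio was -1.885. Igfbp2 (chromosome 1, 72824503 to 72852474), another binding protein of the family, stood at 3961, 3207, 5768, 8094 and 9669 CPM from 0 to 30 h, with an overnight log2 ratio of 0.85 (0.82 to 0.88). Igf1, the growth factor itself, stood at 7514 and 10707 CPM (log2 0.51, 0.49 to 0.53). Igfbp2 had 0.549 UMIs per UMI of Igfbp1 at 8 h and 3.95 at 16 h, a log2 change of 2.85 (2.80 to 2.89). Of the 3 with enough UMIs, 1 was past 2-fold.

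Genes of bile acid synthesis lay on both sides of 0, and no difference between its routes was tested. Of the 4 panel genes of the classic route, 2 were over 2-fold lower, with a median log2 ratio of -0.90. Cyp7a1 (chromosome 4, 6265612 to 6275633, minus strand), the rate-limiting enzyme, stood at 698, 1173, 247, 1642 and 645 CPM from 0 to 30 h. Its ratio was -2.25 (-2.33 to -2.16), or 4.74-fold, from 4667 and 1522 UMIs, and 16 h was its lowest point. Cyp8b1 (chromosome 9, 121914356 to 121916305, minus strand), the 12-alpha-hydroxylase that sets the share of cholic acid, stood at 4878 and 1994 CPM (log2 -1.29, -1.32 to -1.26), also its lowest point. Akr1d1, the following 5-beta-reductase, stood at 2432 and 1703 CPM (log2 -0.51). Hsd3b7, a dehydrogenase that both routes use, was on the other side, at 3968 and 5084 CPM (log2 0.36, 0.33 to 0.39), with Gm49388 overlapping one of its exons.

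On the alternative route, 1 of 4 genes was over 2-fold lower and none over 2-fold higher, with a median log2 ratio of -0.37. Cyp7b1 (chromosome 3, 18071950 to 18243338, minus strand), the oxysterol 7-alpha-hydroxylase, stood at 1500, 1040, 1916, 783 and 1054 CPM from 0 to 30 h, with intervals of 1008 to 1072 CPM for 8 h and 1881 to 1951 CPM for 16 h. Its ratio was 0.88 (0.83 to 0.93), the second highest of the 56 genes, and 16 h was its highest point. UMIs of Cyp7b1 per UMI of Cyp7a1 went from 0.887 at 8 h to 7.75 at 16 h and stood at 2.15, 0.477 and 1.63 at 0, 24 and 30 h. Cyp27a1, the mitochondrial sterol 27-hydroxylase that opens this route, stood at 2138 and 1622 CPM (log2 -0.40). Cyp39a1 had a ratio of -0.34, and Cyp46a1, with only 429 and 204 UMIs, one of -1.70 (-1.95 to -1.46). The 3 panel genes of the late steps were not past 2-fold, with ratios of -0.23 for Baat, -0.17 for Cyp2c70 and 0.20 for Slc27a5. The Baat value varied with the setting. It was 0.12 in barcodes with 300 or more UMIs, -0.92 in those under 200 UMIs and -0.70 when CPM were averaged over barcodes. That of Cyp2c70 was 0.03 by median-of-ratios scaling.

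Nr0b2 (chromosome 4, 133553376 to 133556536) encodes SHP, a repressor that bile acids induce through the receptor FXR and that is known to hold down Cyp7a1. Its CPM from 0 to 30 h were 374, 555, 863, 644 and 790, with intervals of 532 to 578 CPM for 8 h and 840.2 to 887 CPM for 16 h. Its log2 ratio was 0.64 (0.57 to 0.71), and 16 h was its highest point among the 5 libraries. UMIs of Nr0b2 per UMI of Cyp7a1 went from 0.473 to 3.49. Nr1h4, which encodes FXR, stood at 1162 and 1203 CPM with an interval of the ratio that includes 0 (-0.00 to 0.10). In barcodes with 300 or more UMIs the Nr1h4 ratio was 0.19 (0.13 to 0.25). It was -0.15 when CPM were averaged over barcodes. S1pr2, a bile acid responsive surface receptor, stood at 78.7 and 58.7 CPM (log2 -0.42).

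Upstream sequence is shown for 3 genes that were picked by hand and do not represent the other genes of the step. Igfbp1 was over 2-fold lower at 16 h, and Pck1 and Nr0b2 were above 0 by less than 2-fold. Of the genes over 2-fold lower, only Igfbp1 and Cd68 had a match to any of the motifs below. The promoter sequences used had no entry for Elovl3, Sds and Cyp7a1. The windows are the 250 bases before the RefSeq start on GRCm38.p6, all on the plus strand, 5′ to 3′, in lower case. Capitals mark a match to 1 of 3 motifs searched on both strands, with no overlap between matches. The Igfbp1 window is chr11:7197537-7197786, that of Pck1 is chr2:173152823-173153072 and that of Nr0b2 is chr4:133553126-133553375.
Igfbp1: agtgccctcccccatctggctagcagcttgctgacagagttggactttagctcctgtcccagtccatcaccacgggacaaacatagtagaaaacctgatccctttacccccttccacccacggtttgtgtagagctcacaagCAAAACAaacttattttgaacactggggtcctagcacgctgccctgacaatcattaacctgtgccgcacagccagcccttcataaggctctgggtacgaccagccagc
Pck1: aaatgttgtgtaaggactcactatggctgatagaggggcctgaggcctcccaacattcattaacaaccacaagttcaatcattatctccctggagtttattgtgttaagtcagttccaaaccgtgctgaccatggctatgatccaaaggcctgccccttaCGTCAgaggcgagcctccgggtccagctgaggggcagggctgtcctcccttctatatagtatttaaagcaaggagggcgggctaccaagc
Nr0b2: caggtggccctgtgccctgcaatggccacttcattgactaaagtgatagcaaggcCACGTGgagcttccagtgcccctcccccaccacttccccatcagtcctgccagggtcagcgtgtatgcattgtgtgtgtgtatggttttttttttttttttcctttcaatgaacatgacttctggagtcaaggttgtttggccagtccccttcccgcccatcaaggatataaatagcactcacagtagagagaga

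The first motif, CAAAACA, is the core of the insulin response element through which FOXO factors act, and the Igfbp1 window held it 108 bases before the start. It occurred in 5.56% of 32851 such windows in the mouse table and in 4 of 57 windows of the 45 panel genes matched. Those 4 were the windows of G6pc, Hsd3b1, Igfbp1 and Usf1. Chromosome 18, where Pdgfrb lies, was left out of the panel windows but not of the 32851. The second, CGTCA, is the half-site of the cyclic AMP response element, and stood 90 bases before the Pck1 start. It occurred in 17.8% of all windows and in 8 of the 57 (14%), those of Cd68, Elovl7, Fgf21, Gpam, Hsd17b13, Pck1, Pdgfra and S1pr2. The third, CACGTG, is the E-box bound by clock factors, USF and others, and stood 195 bases before the Nr0b2 start. It occurred in 6.02% of all windows and in 5 of the 57, those of Elovl5, Fgf21, Igfbp2, Mlxipl and Nr0b2. Of the genes with CAAAACA and enough UMIs, Igfbp1 had a log2 ratio of -2.00, and G6pc and Usf1 had -0.05 each. Of those with CGTCA, Pck1, Fgf21, Gpam and Hsd17b13 were above 0 and Cd68 and S1pr2 below. Of those with CACGTG, Igfbp2, Nr0b2 and Fgf21 were above 0 and Mlxipl and Elovl5 below.

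A fasting hormone and genes of fat storage differed by less than 2-fold. Fgf21, a hormone that the fasted liver secretes, had 196 and 513 UMIs, or 49.3 CPM and 83.3 CPM (76.3 to 90.9), a log2 ratio of 0.76. Of the 4 genes of triglyceride synthesis and storage, none was past 2-fold in either direction, and their median ratio was -0.01. Gpam, which adds the first fatty acid to glycerol phosphate, had a ratio of 0.09, Dgat2, which adds the last, one of -0.23, and the lipid droplet enzyme Hsd17b13 one of 0.23. Actb, the cytoskeletal actin often used as a control, had a ratio of -0.29, and Alb one of -0.01. By median-of-ratios scaling the value of Alb was 0.19.

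Zone markers differed unequally. Of 3 pericentral genes 1 was over 2-fold lower, with a median log2 ratio of -0.11, and of 5 periportal ones 1, Sds, with a median of 0.22. The liver lobule is divided between hepatocytes near the portal vein, which make most glucose, and those near the central vein, which make glutamine and detoxify. Cyp2e1, a pericentral cytochrome, stood at 21897 and 20241 CPM (log2 -0.11), but its ratio was 0.13 in barcodes with 300 or more UMIs. Gulo, another pericentral gene, had a ratio of -0.04 (0.16 by median-of-ratios scaling) and the periportal Cyp2f2 one of 0.22. Glul (chromosome 1, 153899944 to 153909723), which encodes the glutamine synthetase of the cells that line the central vein, stood at 2137, 2167, 1065, 2156 and 1404 CPM from 0 to 30 h, with an overnight log2 ratio of -1.03 (-1.07 to -0.98). The ratio was -0.90 in barcodes with 300 or more UMIs, and Mir8114 overlaps an exon of the gene.

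Glul was also described by barcode, within barcodes of 300 or more UMIs only. After thinning to 300 UMIs, 23 barcodes at 8 h (0.446%, 0.283% to 0.668%) and 43 at 16 h (0.521%, 0.377% to 0.701%) held 10 or more Glul UMIs, a cut chosen after the values were seen, with 7 and 10 barcodes at 7 to 12 UMIs. As the cut is on Glul itself, the levels on its 2 sides are a description. The unthinned shares were 0.62% and 0.581%. These barcodes held a mean of 34.7 Glul UMIs at 8 h and 40.4 at 16 h, beside 46.3 and 52.9 Cyp2e1 UMIs and 0.913 and 1.74 Cyp2f2 UMIs. In the other thinned barcodes, 5136 and 8217, the mean went from 0.440 to 0.180 Glul UMIs per barcode, which gives -1.28 on the log2 scale (-1.38 to -1.19). Barcodes above the cut held 26.1% of the Glul UMIs left after thinning at 8 h and 53.9% at 16 h. Whether RNA free in the droplets carried the low level at 8 h was not tested.

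Because the libraries differ in depth, the step was also read within bands that had the same limits of UMIs per barcode in both libraries. Depth within a band was not matched. Within all 5 bands, from under 200 to 1000 or more UMIs per barcode, Srebf1 was over 2-fold higher at 16 h, with log2 ratios of 1.79 to 2.26. In the same 5 bands Igfbp1 lay between -2.41 and -1.47, Pklr between -2.36 and -1.82, Elovl6 between -2.11 and -1.17, Acly between -1.61 and -1.11, and Acaca between -2.45 and -1.02. Fasn was past 2-fold in 4 of 5 bands (-1.64 to -0.90). Cyp8b1 was below 0 in all 5 bands, but past 2-fold in only 2 of them (-1.55 to -0.44). Pck1 was above 0 in each band, from 0.10 under 200 UMIs to 0.63 at 200 to under 300. Cyp7b1, Igfbp2, Elovl2, Igf1 and Nr0b2 were above 0 in all 5 bands too.

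Other genes depended on the band. Sds stood at 9065 CPM in 8 h barcodes under 200 UMIs and at 3866 to 4222 CPM in those of 300 or more, against 1682 to 2271 CPM in all bands at 16 h. Its ratio was -2.27 in the shallowest band and -0.85 at 500 to under 1000 UMIs. Glul changed sign, with ratios of -1.23 under 200 UMIs, 0.14 and 0.55 in the next bands, and -1.24 and -1.47 in the deepest ones. Cyp2e1 did so as well, with 1.02 at 300 to under 500 UMIs and -1.10 at 1000 or more. So did Cyp27a1, with 0.22 and -0.73 in the same 2 bands. Cyp7a1 and Elovl3 were lower at 16 h in every band, but by more in the deepest, where Cyp7a1 stood at -3.31 (-3.80 to -2.84) and Elovl3 at -2.80 (-2.98 to -2.62). The share of Alb within a band could also differ: at 300 to under 500 UMIs, Alb took 71.5% of UMIs at 8 h and 63.9% at 16 h. Whether a band held the same cells in both libraries was not tested.

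**Figure D4:**
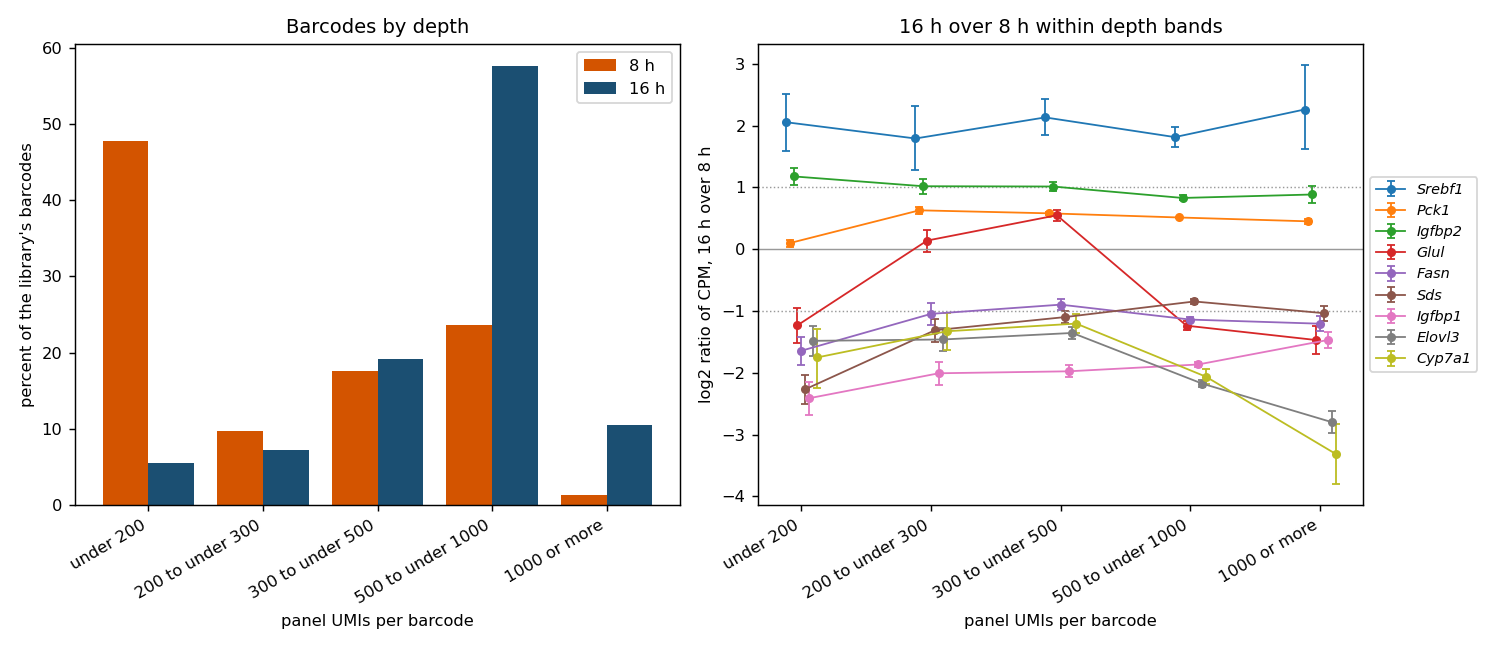
Left, the percent of each library's barcodes in 5 bands of panel UMIs per barcode. Right, the log2 ratio of 16 h over 8 h within each band for 9 genes, with 95% counting intervals; Srebf1 stays above 1, Igfbp1 below -1 in every band, and Glul changes sign.

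The step was then compared between ends of the zonal range. Barcodes with 300 or more UMIs were ranked within each library by the share of Cyp2e1 in Cyp2e1 plus Cyp2f2 and divided into 3 ranges. The lowest, here called Cyp2f2-rich, held 1768 barcodes at 8 h and 2786 at 16 h, and the highest, called Cyp2e1-rich, 1684 and 2704. These are ranges of a ratio and not cell types. The upper cut was at a share of 0.5 at 8 h and 0.3 at 16 h, with 3.45% and 11.1% of barcodes within 0.05 of it. The lower was at 0.156 and 0.136, with 22.3% and 30.5% within 0.05. Median depths were 611.5 and 781.5 UMIs in the Cyp2f2-rich range and 481 and 556 in the Cyp2e1-rich one. Alb took 78.2% and 75.7% of UMIs in the former and 61.9% and 59.9% in the latter. Outside Alb, the ranking genes and the other-cell genes, 49 genes could be compared.

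In both ranges, 6 genes were over 2-fold lower at 16 h, Pklr, Cyp7a1, Igfbp1, Cyp46a1 and Elovl3 among them, and Srebf1 was over 2-fold higher. Acly, Elovl6, Acaca and Fasn had lower ratios in the Cyp2e1-rich range. The ratio of Scd1 was 0.34 in the Cyp2f2-rich and 0.07 in the Cyp2e1-rich range, so it was the nearer to 0 in the latter. Acly went from 8054 to 2538 CPM there (log2 -1.67) and from 4412 to 2542 CPM in the Cyp2f2-rich range (-0.80). At 16 h these 2 levels were nearly the same with Alb in the denominator, but not without Alb. The difference between the 2 log2 ratios was -0.87 (-0.95 to -0.79). It was -1.08 for Elovl6 (-1.24 to -0.93), -0.61 for Acaca and -0.35 for Fasn (-0.44 to -0.26). Igfbp1 did likewise, going from 8787 to 2011 CPM in the Cyp2e1-rich and from 3398 to 1199 CPM in the Cyp2f2-rich range, a difference of -0.62 (-0.72 to -0.53).

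The order of the ranges by Nr0b2 level changed with Alb in the denominator, but not without Alb, which took unequal shares of their UMIs. At 8 h, with Alb, Nr0b2 stood at 695 CPM in the Cyp2f2-rich and 344 CPM in the Cyp2e1-rich range, and at 16 h at 797 and 1030 CPM. Its log2 ratio was 0.20 in the former and 1.58 in the latter, a difference of 1.38 (1.17 to 1.60), the widest of the 49 genes. Without Alb the 2 ratios of Nr0b2 were 0.04 and 1.51. Elovl3 differed more in the Cyp2f2-rich range, from 2442 to 393 CPM (log2 -2.63), against 6131 to 1826 CPM in the Cyp2e1-rich range (-1.75). Pck1 went from 24210 to 37146 CPM in the Cyp2f2-rich range and from 26615 to 34785 CPM in the Cyp2e1-rich one, log2 ratios of 0.62 and 0.39. Glul, counted in whole ranges, had ratios of -1.44 in the Cyp2f2-rich range, where it stood at 992 and 367 CPM, and -0.50 in the Cyp2e1-rich one. With cuts of 0.15 and 0.4 in both libraries, an alternative chosen after the data had been seen, the difference was 1.43 for Nr0b2, -0.86 for Acly, -0.99 for Elovl6, -0.46 for Igfbp1 and 1.15 for Elovl3. With 1 library per side, none of these differences between ranges was tested.

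**Figure D5:**
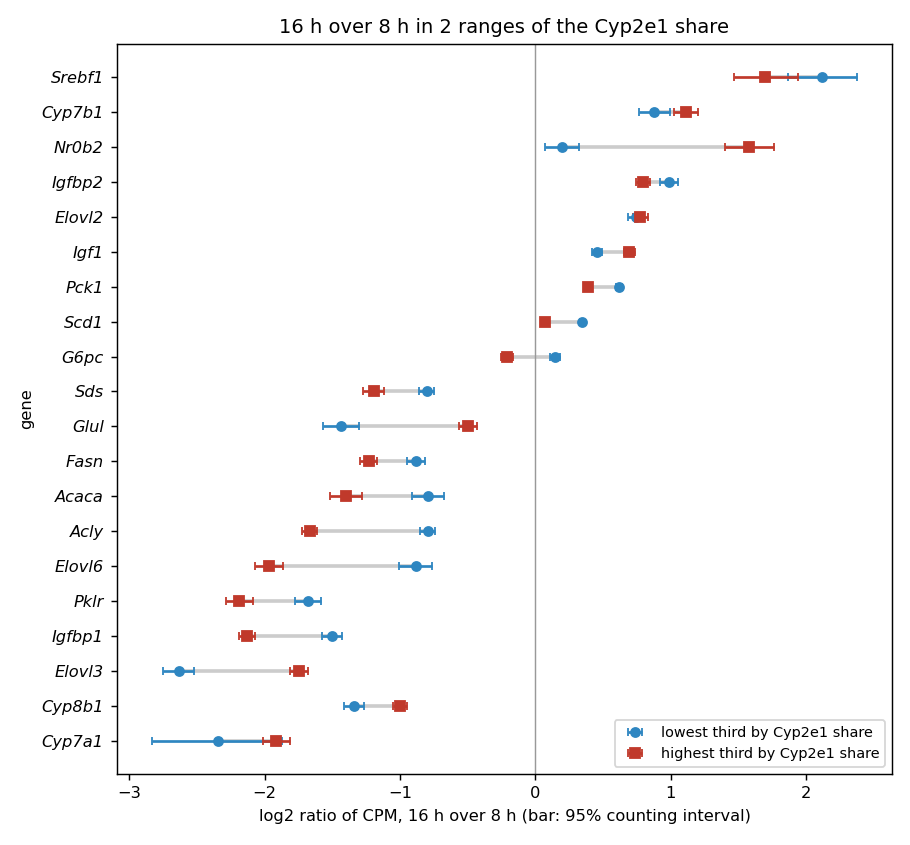
Log2 ratio of CPM at 16 h over 8 h (horizontal axis, with 95% counting intervals) for 20 genes in the Cyp2f2-rich range (circles, lowest by Cyp2e1 share) and the Cyp2e1-rich range (squares, highest) of barcodes with 300 or more UMIs. The widest gaps are those of Nr0b2 (0.20 and 1.58), Elovl6 (-0.89 and -1.97) and Glul (-1.44 and -0.50).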

How the data were processed

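The authors deposited whole-number UMI counts for 64 genes and 47473 barcodes in a single matrix. Per the file headers, Cell Ranger 6.0.1 wrote it. The build was mm10, per the submitters' processing notes. Libraries were prepared with a 10x 3' kit and enriched by targeted hybridization, per the labels' protocols. The sources used here do not say how cells were called or whether depth was equalised. Each barcode's library came from the deposited barcode table. No barcode was filtered out and no doublet caller was run.

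Counts were summed per library and divided by panel UMIs (CPM). A gene was called at over 2-fold, among genes with at least 100 UMIs over both libraries. Intervals are at 95%: exact Poisson for CPM, conditional binomial for log2 ratios, Clopper-Pearson for shares, and normal ones from 4 counts for differences of log2 ratios. They cover counting error only, and depth sets their width. There was no test and no p-value.

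Genes were named if they were on a role list, past 2-fold, or among the 5 largest differences in either direction, among genes with enough UMIs. Values of 2 panel genes, which are in the counts over all genes, are not reported here. Members and lists were chosen with earlier results of these data known. Of the lists, those of cholesterol metabolism and the clock had 0 panel genes. Positions come from GENCODE M21, where all 64 identifiers matched, and promoter sequences from RefSeq on GRCm38.p6. On data simulated for this comparison with 55 genes, 100% of genes changed 4-fold were recovered and 0 others called. The simulated counts held counting error only, so this checks the calculation and not differences between libraries in depth or cells. Python 3.11.15, numpy 2.4.6 and scipy 1.17.1 were used.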

Additional observations from a re-analysis of the deposited data

Results flagged for a closer look

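In 2 of 49 genes, the log2 ratio of 16 h over 8 h had opposite signs in the Cyp2f2-rich and the Cyp2e1-rich range, with both counting intervals clear of 0. The difference was not tested, as each side is 1 library. G6pc had ratios of 0.15 and -0.21, a difference of -0.35 (-0.41 to -0.30). Without Alb in the denominator its ratios were -0.01 and -0.28. Hamp2, a hepcidin gene outside the naming rule that was picked after its values were seen, had ratios of 0.20 and -0.46, a difference of -0.66 (-0.87 to -0.45), and 0.05 and -0.53 without Alb.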

How the results depend on the processing

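The count of genes over 2-fold lower at 16 h was 17 in the main setting. It was 11 in barcodes with 300 or more UMIs, with or without Alb, and 11 in those of at least 300 and under 1000 UMIs. It was 7 by UMIs per barcode, and 12 to 21 otherwise. The count over 2-fold higher was 1, but 2 in barcodes of at least 300 and under 1000 UMIs, 3 by median-of-ratios scaling, 19 by UMIs per barcode and 2 when CPM were averaged over barcodes. Past 2-fold in each planned setting that gave gene values were 5 genes (Pklr, Cyp7a1, Igfbp1, Srebf1 and Elovl3), and 12 in each but UMIs per barcode. The median log2 ratio over genes was -0.20. It was -0.026 in barcodes with 300 or more UMIs, -0.091 in these without Alb, -0.046 with 200 or more UMIs, -0.034 in those of at least 300 and under 1000 UMIs, -0.11 without barcodes that held a UMI of a non-hepatocyte gene, 0 by median-of-ratios scaling, 0.79 by UMIs per barcode and -0.26 when CPM were averaged over barcodes. Glul was above 0 at 200 to under 300 UMIs (0.14) and at 300 to under 500 (0.55), and the cause was not tested. The median over genes of the Cyp2e1-rich minus the Cyp2f2-rich ratio was 0.033, but 0.11 without Alb, 0.14 with 5 ranges in place of 3 and 0.15 with the same cuts in both libraries. The summed other-cell genes had a log2 ratio of -2.68, and -0.86 in barcodes with 300 or more UMIs. Depth limits genes under 100 UMIs most. No paired analysis was possible because each time point has 1 library.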

Other observations

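On the panel, 8 genes had under 100 UMIs over both libraries and were not compared above. Elovl7, an elongase of long saturated fatty acids, had 67 UMIs at 8 h and 14 at 16 h, or 16.8 and 2.27 CPM, a log2 ratio of -2.89 (-3.83 to -2.04). Igfbp3 had 17 and 2 UMIs (log2 -3.72, interval -6.87 to -1.64). Fgf15, an intestinal hormone, had 0 UMIs in both libraries, which allows up to 0.754 CPM at 8 h and 0.487 CPM at 16 h by a floor of 3 counts per library. The exact Poisson intervals used elsewhere end at 0.927 and 0.599 CPM. Ywhaz, a scaffold protein outside the naming rule, stood at 2384 and 2369 CPM, and Rxra, the partner of FXR and LXR and also outside it, at 1557 and 1662 CPM.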
